A study of Homo sapiens with 8 samples.

Results

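Chromosome 19 carries the densest concentration of zinc finger genes in the human genome, and their transcripts were followed here through 4 stages of directed differentiation of H1 cells, a human embryonic stem cell line. The members were the protein-coding rows whose GENCODE 29 symbol starts with ZNF and which lie on chromosome 19. There were 249 such genes among 58780 genes in all, out of 515 protein-coding ZNF genes on all chromosomes. The rule used name and position and no measured value, although the family itself was taken up with earlier results of these data known. The stages, in order, were undifferentiated embryonic stem cells (hESC), then definitive endoderm (hDE), followed by endoderm of the anterior foregut (hAFE) and last of the pharyngeal foregut (hPFE), with 2 libraries each, all from the H1 line and with no genetic change named. Titles of the hESC and hDE samples carry a re-analysis mark that those of hAFE and hPFE lack. The comparisons of hDE with hESC and of hPFE with hAFE therefore stay within samples alike in this mark. In the comparisons of hAFE with hDE and of hPFE with hESC, stage and mark cannot be told apart. Whether samples alike in the mark share an origin or a batch is not stated. Nothing in the labels tells if a stage's pair of libraries was grown independently, so the p-values reflect library-to-library spread, possibly technical only.

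Most of these genes encode KRAB zinc finger proteins. In such a protein an array of C2H2 fingers binds DNA, often within a transposable element, and the KRAB domain recruits the co-repressor TRIM28, which brings in the histone methyltransferase SETDB1, HP1 proteins and histone deacetylases and so deposits H3K9 trimethylation. The family grew by tandem duplication, which left close relatives side by side in clusters, several of them expanded in primates. The family is best known in stem cells and early embryos for silencing endogenous retroviruses and other mobile elements.

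Translated from the coding sequences of GENCODE 29, 210 of the 249 proteins carried a match to a KRAB A box pattern and 39 did not, and the median protein had 12 C2H2 fingers, with a maximum of 36. By position, 238 members fell into 9 clusters, defined as 5 or more members with no gap above 1 Mb (hg38), and 11 were scattered. Named here from C1 to C9 in chromosome order, they held 5 genes at 2.8 to 2.9 Mb (C1), 16 at 7.1 to 9.8 Mb (C2), 26 at 11.5 to 12.6 Mb (C3), 37 at 19.7 to 24.1 Mb (C4), 5 at 34.7 to 35.0 Mb (C5), 26 at 36.2 to 37.8 Mb (C6), 24 at 43.5 to 45.1 Mb (C7), 40 at 51.6 to 53.6 Mb (C8) and 59 at 55.5 to 58.5 Mb (C9). Genes of a cluster are related in sequence and are not independent of each other.

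Promoter windows from RefSeq (GRCh38.p14, 250 bases before to 50 after the annotated start) matched 217 of the 249 members by symbol, all on the same strand, and 180 lay within 1 kb of the GENCODE start. Letters were searched on both strands, and matches of different motifs may overlap. GGGCGG, the core of the GC box, stood in 68.2% of the members' windows against 44.9% of all 34796 windows. CCGGAAG, an ETS-type site, stood in 45.6% against 10.2%, and CCAAT in 53.9% against 34.6%. TATAAA stood in 1.84% of the members' windows against 11.6% of all. AGATAA, the GATA motif, was found in 5.53% against 10.4%, and TGTTTAC, a forkhead motif, in 0.922% against 3.42%. These are matches of letters in 1 window per gene, not binding sites.

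The promoters also differed by cluster. CCAAT was present in all 29 matched C4 windows, in 92.0% of 25 in C3 and in 30.3% of 33 in C8, whereas ACAAAGG, a SOX-type motif, was present in 62.1% of the C4 windows against 13.4% of the members' windows as a whole and 5.35% of all windows. The windows are shown for genes whose levels are described below and were chosen after their values were seen. The first 3 are of a stretch of neighbours in C8 that was high in hDE, the next is of ZNF792, a C5 gene that was high in hDE, and the last 3 are of C4, of which ZNF90 and ZNF93 were low in hPFE and ZNF91 was not. Capitals mark the GC box, ETS-type, CCAAT and SOX-type letters given above, on either strand. The C8 windows lie at chr19:52527418-52527717 on the plus strand (ZNF808), chr19:52734995-52735294 on the minus strand (ZNF611) and chr19:52857570-52857869 on the minus strand (ZNF468). The ZNF792 window lies at chr19:34964180-34964479 on the minus strand. The C4 windows lie at chr19:20077750-20078049 on the plus strand (ZNF90), chr19:19900696-19900995 on the plus strand (ZNF93) and chr19:23395422-23395721 on the minus strand (ZNF91).
ZNF808: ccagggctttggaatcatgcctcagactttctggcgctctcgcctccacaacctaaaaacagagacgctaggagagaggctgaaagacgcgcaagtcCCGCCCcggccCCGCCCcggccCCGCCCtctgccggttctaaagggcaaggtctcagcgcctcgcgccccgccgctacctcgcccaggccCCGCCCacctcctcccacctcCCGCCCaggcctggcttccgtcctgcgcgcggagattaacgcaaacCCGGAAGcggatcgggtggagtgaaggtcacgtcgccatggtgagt
ZNF611: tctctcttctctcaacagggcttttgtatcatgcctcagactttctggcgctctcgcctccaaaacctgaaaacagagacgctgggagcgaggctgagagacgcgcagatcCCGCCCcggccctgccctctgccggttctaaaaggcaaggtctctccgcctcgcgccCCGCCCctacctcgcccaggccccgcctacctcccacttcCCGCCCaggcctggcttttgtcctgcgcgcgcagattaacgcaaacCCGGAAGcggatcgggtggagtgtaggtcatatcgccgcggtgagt
ZNF468: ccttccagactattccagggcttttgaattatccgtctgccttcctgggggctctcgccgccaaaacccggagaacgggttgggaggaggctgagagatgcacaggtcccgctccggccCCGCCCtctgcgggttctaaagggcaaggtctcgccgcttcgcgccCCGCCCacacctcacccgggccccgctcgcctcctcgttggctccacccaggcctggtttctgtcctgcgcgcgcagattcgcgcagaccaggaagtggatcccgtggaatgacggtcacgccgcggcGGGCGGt
ZNF792: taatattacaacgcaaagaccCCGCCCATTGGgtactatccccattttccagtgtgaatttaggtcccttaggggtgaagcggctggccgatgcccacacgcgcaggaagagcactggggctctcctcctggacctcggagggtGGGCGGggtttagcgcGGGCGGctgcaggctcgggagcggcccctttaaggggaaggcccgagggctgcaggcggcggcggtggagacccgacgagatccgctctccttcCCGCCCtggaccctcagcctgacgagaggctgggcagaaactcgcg
ZNF90: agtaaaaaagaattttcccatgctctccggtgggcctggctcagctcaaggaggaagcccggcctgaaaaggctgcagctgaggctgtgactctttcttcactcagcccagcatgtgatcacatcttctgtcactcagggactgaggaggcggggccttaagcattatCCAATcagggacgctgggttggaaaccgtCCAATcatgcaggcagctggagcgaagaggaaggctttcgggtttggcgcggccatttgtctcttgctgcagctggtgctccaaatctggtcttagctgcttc
ZNF93: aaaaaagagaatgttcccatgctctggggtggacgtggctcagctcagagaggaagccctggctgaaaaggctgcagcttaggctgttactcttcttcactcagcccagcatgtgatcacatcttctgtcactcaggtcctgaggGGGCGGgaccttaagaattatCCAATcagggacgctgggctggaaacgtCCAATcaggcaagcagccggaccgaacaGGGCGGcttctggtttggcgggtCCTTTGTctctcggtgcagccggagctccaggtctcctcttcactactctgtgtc
ZNF91: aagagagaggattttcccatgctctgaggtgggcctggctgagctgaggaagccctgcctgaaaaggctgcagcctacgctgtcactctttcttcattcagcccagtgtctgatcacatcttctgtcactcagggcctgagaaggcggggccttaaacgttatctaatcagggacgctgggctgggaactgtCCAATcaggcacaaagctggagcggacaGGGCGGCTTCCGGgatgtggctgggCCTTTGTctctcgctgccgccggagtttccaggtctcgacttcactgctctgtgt

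In a global alignment the ZNF808 and ZNF611 windows were 83.4% identical and those of ZNF611 and ZNF468 76.8%, while ZNF808 and ZNF792 shared 45.7%. The 3 C4 windows were 80.1% to 83.6% identical to each other. The ZNF808 window held 5 GC box matches and no CCAAT, and the ZNF90 window held 2 CCAAT matches and no GC box. In lacking the GC box ZNF90 was unlike most of its cluster. The ZNF93 window held 2 GC box matches and that of ZNF91 1, and 75.9% of the 29 matched C4 windows held those letters.

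The libraries held 12687128 to 17802890 estimated counts, of which the members took 0.481% to 0.745%. Levels between stages are given as CPM (counts-per-million units, from estimated counts after TMM scaling) and levels between genes as TPM, the deposited per-length value. Of the 249 members, 235 reached 10 summed counts over the 8 libraries and were tested, and 14 did not. Of those 14, 9 lie in C4 (ZNF208, ZNF257, ZNF676, ZNF729, ZNF98, ZNF492, ZNF99, ZNF723 and ZNF728, with 0 to 2 counts each over all libraries), and the others were ZNF556, ZNF560, ZNF575, ZNF541 and ZNF534, with 2 to 7 counts. A gene was called higher or lower where the adjusted p of edgeR's quasi-likelihood test, Benjamini-Hochberg adjusted over all 22368 genes tested, was under 0.05. POU5F1, a pluripotency factor, was at 866 and 956 CPM in hESC and under 0.5 CPM in every hAFE and hPFE library, and SOX17, which marks definitive endoderm, was at 124 and 149 CPM in hDE and under 0.5 CPM elsewhere. The hPFE markers PAX9 and PAX1 were highest in hPFE. The hAFE replicates differed, with OTX2 at 17.1 and 331 CPM. The 5 listed trophoblast and amnion markers summed to 20.3 and 117.1 CPM in hAFE and 75.4 and 44.4 CPM in hPFE, against under 0.4 CPM in every hESC and hDE library. ISL1, also on the hPFE list, made up 70.2 and 34.3 CPM of it in hPFE, and CGA 4.59 and 68.6 CPM in hAFE. GCM1 and CGB3 were at 0.0727 CPM or less in all 8 libraries. The part of these markers in the hAFE and hPFE results was not tested. The first hPFE library stood apart, with a summed level of 1466.5 CPM over 5 mesenchyme and fibroblast markers, against 171.8 CPM in the second and 14.3 to 96.8 CPM in the other 6 libraries, and COL3A1 made up 1215.4 CPM of it.

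The median member was expressed at a low level, 3.04 TPM over all libraries. The highest mean TPM belonged to ZNF146 (34.7 TPM), a protein made of fingers with no KRAB match, and to ZNF121 (34.0 TPM), followed by ZNF91 (21.4 TPM). Within clusters, the highest were ZNF555 in C1 (2.10 TPM), ZNF625 in C3 (10.9 TPM), ZNF302 in C5 (9.75 TPM), ZNF428 in C7 (7.13 TPM), ZNF649 in C8 (14.0 TPM) and ZNF460 in C9 (16.9 TPM), and ZNF780B among the scattered genes (5.90 TPM).

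The summed level of all members was 5878 and 6332 CPM in hESC, 7077 and 6863 CPM in hDE, 5917 and 6876 CPM in hAFE, and 4490 and 5640 CPM in hPFE. Both hDE libraries were above both hESC libraries and both hPFE libraries were below them, whereas the hAFE libraries lay apart, the first within the hESC range and the second within the hDE range. The lowest sum was in the first hPFE library, the one with the high mesenchyme markers, and their part in that sum was not tested. In these bulk libraries, fewer cells of a type and less RNA per cell cannot be told apart. For any difference among the 4 stages, edgeR called 103 of 235 members (43.8%), against 49.1% of all genes tested. That count was 51 to 71 without any 1 of the hESC and hDE libraries. Among those 103, the highest stage mean lay in hDE for 43, in hAFE for 33, in hESC for 19 and in hPFE for 8. The lowest lay in hESC for 49, in hPFE for 49 and in hDE for 5. These stages were not counted over all genes called, so the split is not shown to be particular to the members.

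**Figure D1:**
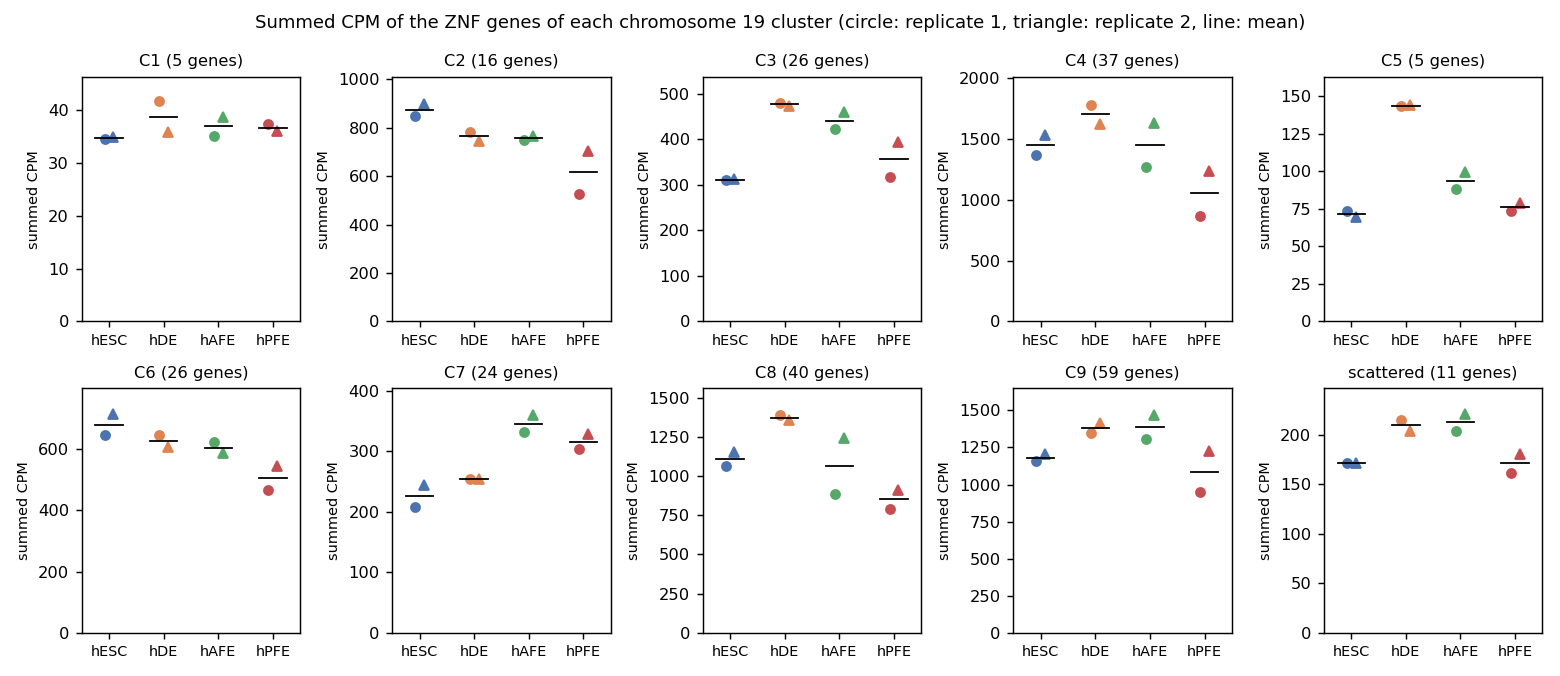
Summed CPM of the ZNF genes of each position cluster, and of the scattered genes, in each library. Circles are replicate 1, triangles replicate 2 and lines the mean of the stage. By stage mean, clusters C1, C3, C4, C5 and C8 stood highest in hDE, and C7 and C9 in hAFE. In C1, C4 and C9 the hDE and hAFE libraries overlapped, with C9 at 1347.6 and 1416.3 CPM in hDE and 1306.5 and 1471.6 CPM in hAFE. Clusters C2, C4, C6, C8 and C9 stood lowest in hPFE by stage mean, as did the sum of all members. The hPFE libraries overlapped those of hAFE in C8 and those of hESC in C9. ZNF792 alone took 63.5 and 66.5 CPM of the C5 sums in hDE.

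The clusters differed in where their sums lay. C3 summed to 479 and 474 CPM in hDE against 310 and 312 CPM in hESC, and remained at 318 and 393 CPM in hPFE. C5 summed to 143 and 144 CPM in hDE against 73.6 and 69.4 CPM in hESC. Of those sums, ZNF792 alone took 63.5 and 66.5 CPM in hDE and 11.8 and 10.6 CPM in hESC. Of the 5 C5 genes, 4 had a positive fold change there and 1 a negative. C7 reached 331.5 and 359.5 CPM in hAFE against 254.7 and 254.5 CPM in hDE. C4 summed to 865.5 and 1238 CPM in hPFE against 1364 and 1527.5 CPM in hESC. C2 summed to 528 and 706 CPM in hPFE against 849 and 899 CPM in hESC. Of those C2 sums, ZNF121 alone took 174 and 244 CPM in hPFE and 484 and 511 CPM in hESC. The median log2 fold change of the 15 tested C2 genes in hPFE over hESC was 0.25, with 3 higher and 1 lower.

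Definitive endoderm was compared first with embryonic stem cells, both from samples with the re-analysis mark. Of 235 members, 49 (20.9%) were higher in hDE and 10 (4.26%) lower, against 15.0% higher, 17.4% lower and 32.4% called in all among all genes tested. The median log2 fold change of the members was 0.20, against -0.01 for all genes, and 156 of the 235 were positive. The 913 other protein-coding genes of chromosome 19 had a median of -0.26, with 81 higher and 204 lower, and the 252 tested ZNF genes on other chromosomes had a median of 0.12, with 36 higher and 31 lower. Of the members with a KRAB match, 46 of 200 were higher and 7 lower, and of those without, 3 of 35 were higher and 3 lower. On the scale of log2(TPM + 1), the members' median turned to -0.20 while that of all genes was -0.14. Protein-coding genes took 13.3% and 14.4% of TPM in hDE against 20.6% and 22.9% in hESC, and the part of this was not tested. With TPM rescaled to protein-coding genes, an alternative chosen after seeing the data, the members' median was 0.30 and that of all genes 0.06. The count of higher members was 16 to 22 when any 1 of the 4 hESC and hDE libraries was left out.

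**Figure D2:**
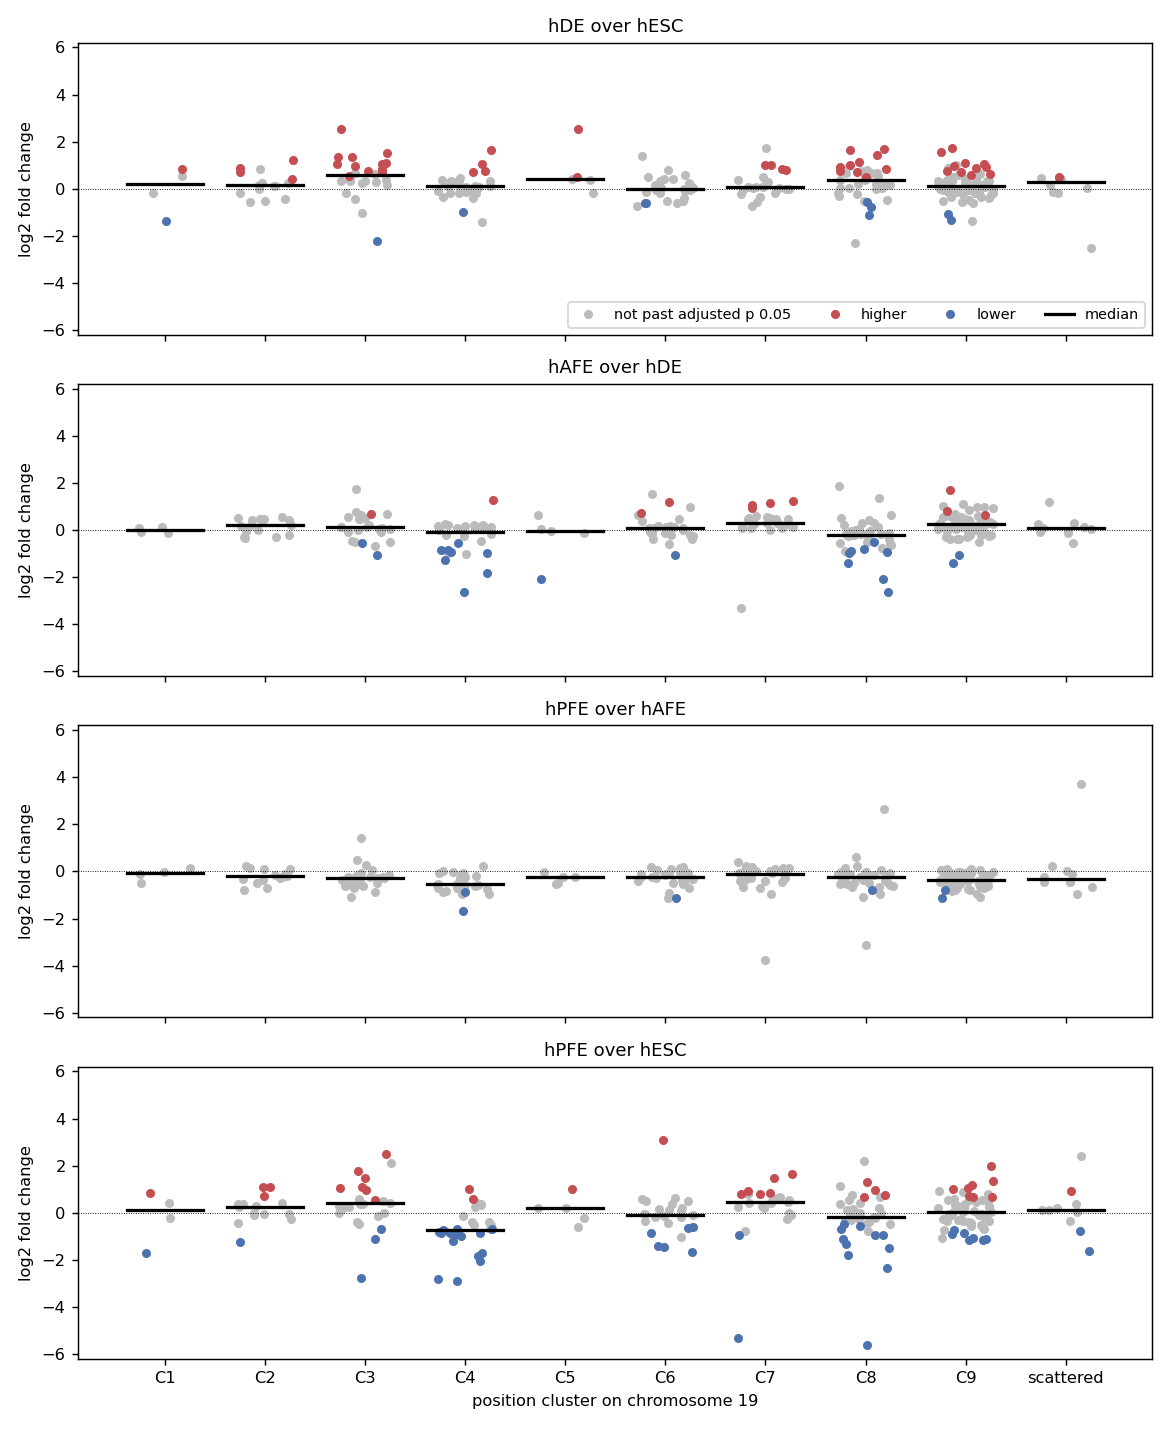
Log2 fold change of each tested member in the 4 comparisons, by position cluster. Red points passed as higher and blue points as lower at an edgeR adjusted p under 0.05, grey points did not pass, and black lines are cluster medians. The C3 median was 0.57 in hDE over hESC, and the C4 median was -0.72 in hPFE over hESC.

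C3 held the largest share of rises, 12 of 26 with 1 fall, and a median of 0.57. Its first run of called neighbours was ZNF627, ZNF823, ZNF441 and ZNF491 (11.56 to 11.81 Mb), all 4 of which were also higher in hPFE than in hESC. ZNF491 was at 3.75 and 4.20 CPM in hDE against 0.424 and 0.918 CPM in hESC, a log2 fold change of 2.55 ± 0.413 (SE, edgeR adjusted p = 0.00227). It was the largest rise of all members that reached 2 CPM without overlap between the stages. A second run joined ZNF625, ZNF136 and ZNF44 (12.14 to 12.29 Mb). ZNF625 had 41.1 and 40.7 CPM in hDE against 29 and 28 CPM in hESC (0.52 ± 0.159, edgeR adjusted p = 0.0363). ZNF878, also of C3, went the other way, with 1.75 and 1.59 CPM in hDE against 8.54 and 6.94 CPM in hESC (-2.21 ± 0.383, edgeR adjusted p = 0.00311), the largest fall by the same rule. The count of C3 rises was 7 without the first hESC library, 3 without the second, 5 without the first hDE library and 3 without the second, with a median above that of all genes under every scaling tried.

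ZNF792 of C5 was high in hDE alone among the stages. It was at 63.5 and 66.5 CPM in hDE against 11.8 and 10.6 CPM in hESC, 5.79 times as high (2.53 ± 0.229, edgeR adjusted p = 0.000132), and stood at 12 and 19 CPM in hAFE and at 13.6 and 12.4 CPM in hPFE. The hAFE level was lower than in hDE (-2.07 ± 0.225, edgeR adjusted p = 0.000432). Both calls held under all 18 alternatives tried. Among those 18, leaving out members with an RSEM posterior SD above 0.2 of the count repeated the main fit for the rest and could lose no call. ZNF792 overlaps no other annotated gene.

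C8 held the longest run of called neighbours. ZNF808, ZNF701, ZNF83, ZNF611, ZNF600, ZNF28 and ZNF468, 7 genes in a row from 52.53 to 52.89 Mb, were all higher in hDE, and together with ZNF432, ZNF841 and ZNF160 they made up the 10 rises of 39 tested in C8. That count was 5 to 7 without 1 of the hESC or hDE libraries and 20 when only these 4 libraries were fitted. ZNF808, whose loss in humans is known to cause failure of pancreas formation, was at 35.0 and 42.0 CPM in hDE against 18.1 and 17.3 CPM in hESC (1.12 ± 0.213, edgeR adjusted p = 0.00469). ZNF611 was at 35.7 and 41.2 CPM in hDE against 11.8 and 12.3 CPM in hESC (1.67 ± 0.179, edgeR adjusted p = 0.000296). ZNF600 was at 14.5 and 16.8 CPM in hDE against 5.58 and 4.36 CPM in hESC (1.66 ± 0.287, edgeR adjusted p = 0.00311).

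Part of the same stretch was lower in the next stage. In hAFE over hDE, 5 of the 7 were lower, namely ZNF808, ZNF701, ZNF611, ZNF28 and ZNF468, against 11.3% of all genes. The 7 were picked for being higher in hDE, and both comparisons share the hDE libraries. That choice favours a fall here, so the falls are no separate support for the run. ZNF611 was at 18.6 and 22.0 CPM in hAFE against the hDE values above (-0.92 ± 0.175, edgeR adjusted p = 0.00632), and ZNF808 at 19.9 and 23.9 CPM (-0.82 ± 0.211, edgeR adjusted p = 0.0251). ZNF83 and ZNF600 did not pass there, with log2 fold changes of -0.40 and -0.89. Of the 7, ZNF83 passed as higher in hPFE than in hESC, with 49.5 and 38.4 CPM in hPFE against 22.5 and 22.7 CPM in hESC (0.96 ± 0.169, edgeR adjusted p = 0.00329), and 2 of the 7 were higher there at an unadjusted p under 0.05. Whether ZNF83 differs from its neighbours was not tested. For the 5 neighbours with a matched promoter all windows held the GC box letters, against 27 of the 33 matched C8 windows, 2 of the 5 held the ETS-type letters, against 21 of 33, and 0 held CCAAT, against 10 of 33. The GATA, forkhead and SOX-type letters were in none of the 5 and in 0, 1 and 1 of the 33. ZNF808 overlaps ZNF701 on the same strand, and ZNF468 overlaps both ZNF28 and ZNF320, so reads of the shared stretches were split by estimation. RSEM's posterior SD was at most 0.0143 of the count among the 7, the highest being that of ZNF468. The rises numbered 5 to 7 whichever library was left out, and 2 on the unrescaled TPM scale. The falls in hAFE numbered 1 to 6, the lowest without the second hDE library, and 2 without the first hDE library, the first hAFE library or either hESC library. With protein-coding totals 2 of the falls passed, and on the unrescaled TPM scale 0 passed by limma. An unadjusted p under 0.05 by edgeR was found for 7 of the 7, and for 7876 of all 22368 genes in either direction. The choice of the 7 by their hDE level favours such values too.

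**Figure D3:**
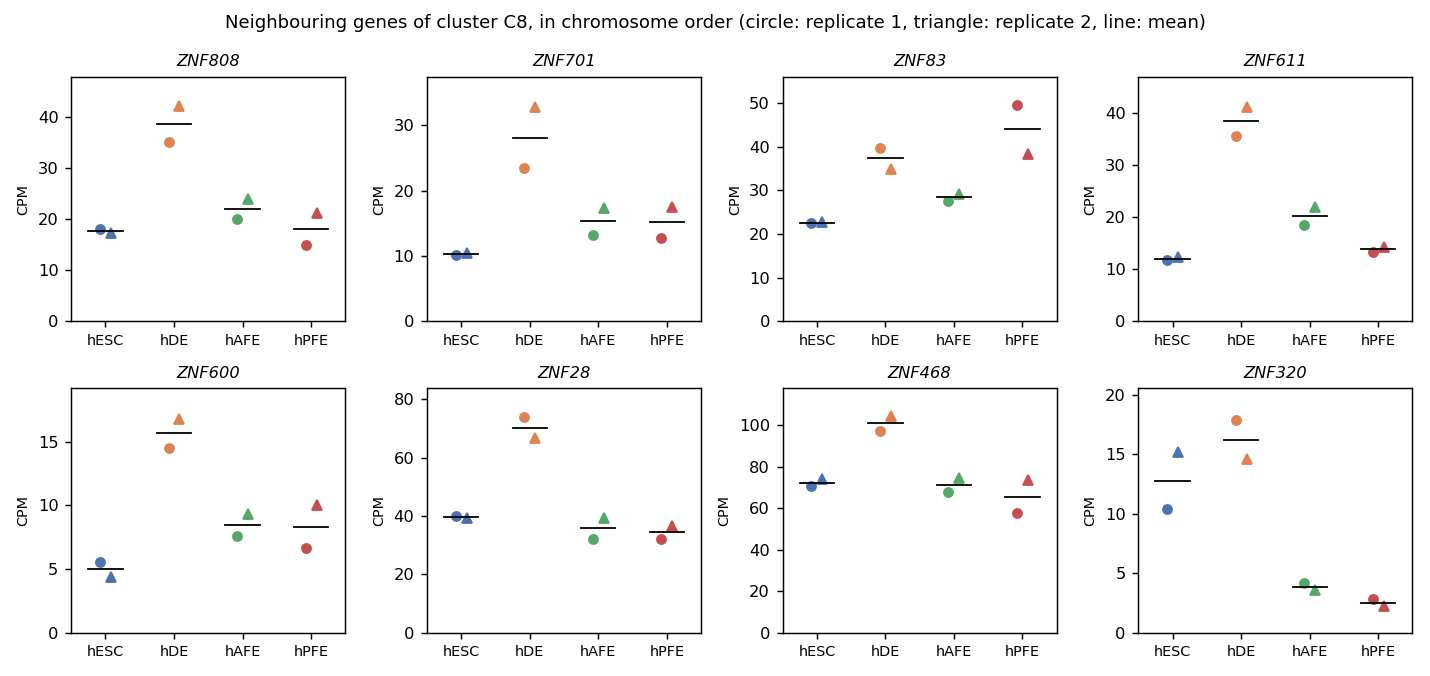
CPM per library of the 7 neighbouring C8 genes that were higher in hDE than in hESC, and of ZNF320, the next member. Circles are replicate 1, triangles replicate 2 and lines the stage mean. ZNF611 stood at 35.7 and 41.2 CPM in hDE against 11.8 and 12.3 CPM in hESC, and ZNF320 was at 4.19 CPM or less in hAFE and hPFE.

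ZNF320 showed how the unit matters for this family. It was at 4.19 and 3.56 CPM in hAFE against 17.9 and 14.6 CPM in hDE (-2.06 ± 0.291, edgeR adjusted p = 0.00151), but its deposited TPM averaged 5.40 ± 1.21 in hAFE and 3.67 ± 0.672 in hDE (SD, n = 2 each). Its deposited effective length was 395 and 443 bases in hAFE against 1744 and 1119 bases in hDE, so both the count and the length assigned to the gene were lower in hAFE. The posterior SD of its count was 0.13 of the count, and its level is uncertain. An effective length that differed by more than 1.5-fold between the stage means, without overlap of the libraries, was found for 1 longer and 3 shorter of the 235 tested members in this comparison.

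Other rises in hDE were spread over the clusters. ZNF471 of C9 was at 6.64 and 7.10 CPM in hDE against 1.58 and 2.52 CPM in hESC (1.74 ± 0.332, edgeR adjusted p = 0.0049). ZNF558 of C2, reported in human neural progenitors to control a mitophagy gene, was at 41.4 and 43.0 CPM in hDE against 22.1 and 23.7 CPM in hESC (0.88 ± 0.163, edgeR adjusted p = 0.00424). ZNF460 was at 115 and 118 CPM in hDE against 67.6 and 58.6 CPM in hESC, ZNF555 at 21.9 and 17.5 CPM against 11.5 and 10.4 CPM, and ZNF302 at 48.2 and 49.6 CPM against 35.8 and 34.4 CPM. All 3 passed the test.

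The 10 falls in hDE lay in C1, C3, C4, C6, C8 and C9. ZNF525 of C8 was at 34.5 and 36.0 CPM in hDE against 72.4 and 81.3 CPM in hESC (-1.12 ± 0.2, edgeR adjusted p = 0.00353). ZNF57 of C1 was at 4.71 and 4.35 CPM in hDE against 10.7 and 12.6 CPM in hESC (-1.36 ± 0.265, edgeR adjusted p = 0.00531). ZNF835, ZNF581, ZNF616 and ZNF146 also fell, with log2 fold changes of -1.33, -1.07, -0.78 and -0.60. ZNF331, an imprinted gene, was at 33.8 and 28.9 CPM in hDE against 47.1 and 45.1 CPM in hESC, and at 21.7 and 20.4 CPM in hPFE. It was lower in hDE than in hESC (-0.56 ± 0.165, edgeR adjusted p = 0.0316) and again in hPFE than in hAFE (-0.80 ± 0.166, edgeR adjusted p = 0.032).

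Anterior foregut endoderm was compared next with definitive endoderm, which sets samples without the re-analysis mark against samples with it. Of 235 members, 11 were higher (4.68%) and 22 lower (9.36%) in hAFE, against 11.4% higher, 11.3% lower and 22.6% called in all among all genes. The median was 0.09, against 0.03 for all genes. Scaling to protein-coding totals raised both medians, to 0.25 and 0.17, and gave 24 higher and 17 lower members. On the unrescaled TPM scale the balance turned, with 77 higher and 2 lower members and a median of 0.63 against 0.34 for all genes. With 1 library left out the higher members numbered 0 to 18 and the lower 11 to 29. Of the members with a KRAB match, 7 of 200 were higher and 22 (11%) lower, a share near that of all genes, and of those without, 4 of 35 were higher and 0 lower. C4 and C8 accounted for 8 falls each, among 28 and 39 tested, with 1 rise in C4. Relative to the median of all genes, the C4 median was -0.11, with 0.34 on the unrescaled and -0.01 on the rescaled TPM scale, and the C8 median was -0.25, with 0.11 and -0.24. The C4 falls numbered 3 without the first hDE library, and the C8 falls 3 without the second hDE library and 4 without the first hAFE library.

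Some of those falls followed a rise. Of the 22, 12 were of members that had been higher in hDE than in hESC, namely ZNF792, the 5 C8 neighbours, ZNF90, ZNF737 and ZNF730 of C4, ZNF625 of C3 and ZNF552 and ZNF814 of C9. These 2 comparisons share the hDE libraries, so a high hDE value enters both. ZNF737 was at 25.1 and 34.5 CPM in hAFE against 77.2 and 66.2 CPM in hDE (-1.27 ± 0.194, edgeR adjusted p = 0.00224). ZNF90 was at 13.8 and 19 CPM in hAFE against 89.3 and 112 CPM in hDE (-2.62 ± 0.242, edgeR adjusted p = 0.000196). ZNF101, at the edge of C4, was at 20.5 and 15.8 CPM in hAFE against 61.7 and 67.8 CPM in hDE (-1.84 ± 0.165, edgeR adjusted p = 0.00017). ZNF578 of C8 was at 0.266 and 0.436 CPM in hAFE against 1.92 and 2.54 CPM in hDE (-2.65 ± 0.582, edgeR adjusted p = 0.0125).

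C7 leaned towards higher levels in hAFE. It held 4 of the 11 rises in hAFE, ZNF428, ZNF284, ZNF285 and ZNF180, and 21 of its 23 tested genes had a positive fold change. The 4 are 17.4% of the 23, against the 11.4% of all genes. That count was 0 without the second hDE library, 1 without the first, 2 without either hESC library or the second hAFE library, 7 with protein-coding totals and 12 on the unrescaled TPM scale. The C7 median relative to that of all genes was 0.26, with 0.45 on the unrescaled and 0.35 on the rescaled TPM scale. ZNF428, a small protein with 1 finger and no KRAB match, was higher at both steps. It was at 11.7 and 11.8 CPM in hDE against 5.94 and 5.68 CPM in hESC (1.02 ± 0.194, edgeR adjusted p = 0.0049), and at 22.9 and 21.7 CPM in hAFE against those hDE values (0.92 ± 0.189, edgeR adjusted p = 0.009). ZNF835 of C9 was at 3.99 and 4.22 CPM in hAFE against 1.05 and 1.45 CPM in hDE (1.70 ± 0.369, edgeR adjusted p = 0.0117), and ZNF738 of C4, which has a KRAB match and no finger match, at 48 and 76.1 CPM against 27.2 and 23.7 CPM (1.29 ± 0.227, edgeR adjusted p = 0.00449). ZNF345 of C6 also rose, at 9.31 and 11.9 CPM in hAFE against 4.19 and 5.07 CPM in hDE. ZNF738, ZNF835 and ZNF607 were the 3 members that were lower in hDE than in hESC and higher in hAFE than in hDE.

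Pharyngeal foregut endoderm was then compared with anterior foregut endoderm, within the samples without the re-analysis mark. Of 235 members, 6 (2.55%) were lower in hPFE and 0 higher by edgeR, against 1.79% lower, 3.35% higher and 5.15% called in all among all genes. At an unadjusted p under 0.05 by edgeR there were 57 lower and 3 higher members. That is 60 of 235, near the share of all genes, 5048 of 22368. DESeq2 called 14 lower and 1 higher, for which the share of all genes was not taken. The median was -0.29, against -0.03 for all genes, and 196 of 235 fold changes were negative. The median of the ZNF genes off chromosome 19 was -0.23. Without the first hPFE library, the one with the mesenchyme markers, the members' median was -0.19 with 4 lower, and without the second it was -0.45 with 26 lower. Without the first hAFE library there were 17 lower, without the second 3, and without any 1 of the hESC and hDE libraries 2. With only the 4 hAFE and hPFE libraries in the fit 0 members passed, and on the unrescaled TPM scale the median was 0.03 with 0 members passing by limma.

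The 6 were ZNF93 and ZNF724 of C4, ZNF850 of C6, ZNF331 of C8, and ZNF551 and ZNF418 of C9. ZNF93, a primate gene known to bind and repress L1 retrotransposons, was at 19.6 and 25.6 CPM in hPFE against 71.2 and 73.2 CPM in hAFE (-1.68 ± 0.185, edgeR adjusted p = 0.00301). ZNF551 was at 22.8 and 31.3 CPM in hPFE against 57.8 and 60.1 CPM in hAFE (-1.13 ± 0.182, edgeR adjusted p = 0.0127). ZNF850 was at 18.3 and 28.3 CPM in hPFE against 51.0 and 51.7 CPM in hAFE (-1.14 ± 0.206, edgeR adjusted p = 0.0193). ZNF724 was at 40.3 and 50.6 CPM in hPFE against 78.8 and 85.9 CPM in hAFE, and ZNF418 at 18.0 and 20.6 CPM against 29.6 and 38.2 CPM. In each the first hPFE library was the lower of the pair except for ZNF331.

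The ends of the protocol were compared last, hPFE with hESC, again samples without the re-analysis mark against samples with it. Of 235 members, 34 (14.5%) were higher and 48 (20.4%) lower, against 16.4% higher, 19% lower and 35.3% called in all among all genes, and the members' median was -0.01 against 0.04. The members' shares were near those of all genes, and the clusters lay on either side. Without the first or second hESC library the counts were 19 and 13 higher and 28 and 24 lower, and on the unrescaled and rescaled TPM scales 54 and 56 higher and 8 and 25 lower. C4 had a median of -0.72, with 15 lower and 2 higher of 28. C3 had a median of 0.40 with 7 higher and 3 lower of 26, C7 0.45 with 6 higher and 2 lower of 23, and C8 -0.19 with 4 higher and 11 lower of 39. Relative to the median of all genes, the C4 median was -0.76 here, -0.36 on the unrescaled and -0.64 on the rescaled TPM scale, while that of C3 was 0.36, 0.36 and 0.35 and that of C7 0.41, 0.42 and 0.54. The C8 median changed sides, at -0.23 here, 0.06 on the unrescaled and -0.11 on the rescaled TPM scale. The median of all genes itself moved up by 0.15 with protein-coding totals and by 0.20 and 0.22 on the 2 TPM scales.

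C4, the cluster of the ZNF91 subfamily, held 15 of the 48 falls. ZNF90 was at 6.89 and 9.95 CPM in hPFE against 53.1 and 64.9 CPM in hESC, 7.03 times lower (-2.81 ± 0.249, edgeR adjusted p = 0.000147). ZNF101 was at 14.6 and 14.9 CPM in hPFE against 61.7 and 61.5 CPM in hESC (-2.06 ± 0.167, edgeR adjusted p = 9.75e-05). ZNF93 was at 19.6 and 25.6 CPM in hPFE against 74.0 and 85.5 CPM in hESC (-1.82 ± 0.186, edgeR adjusted p = 0.000275). ZNF66 was at 7.19 and 10.9 CPM in hPFE against 28.7 and 30.5 CPM in hESC (-1.71 ± 0.236, edgeR adjusted p = 0.00105). The rest were ZNF724 (-1.19), ZNF681 (-0.98), ZNF493 (-0.91), ZNF675 (-0.88), ZNF730 (-0.86), ZNF682 (-0.84), ZNF253 (-0.80), ZNF100 (-0.72), ZNF85 (-0.71) and ZNF486 (-0.68), and ZNF726, which was under 2 CPM in every library. The 5 neighbours ZNF253, ZNF93, ZNF682, ZNF90 and ZNF486 (19.87 to 20.20 Mb) formed the longest run of falls. All 5 passed under RLE scaling, DESeq2 and the replicate block. Without either hESC library, without the first hPFE library, with protein-coding totals, with only the hESC and hPFE libraries fitted and on both TPM scales, 2 of the 5 passed, and without either hDE library 3 did. ZNF90 and ZNF93, which are not adjacent, passed in each of these.

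The ZNF91 gene itself did not follow. ZNF91, a primate zinc finger gene with 31 finger matches that is known to repress SVA retrotransposons, was at 144 and 181 CPM in hPFE against 79.2 and 84.5 CPM in hESC, 1.98 times as high (0.99 ± 0.192, edgeR adjusted p = 0.00506). A difference of that size was present in hDE, at 183 and 159 CPM (1.06 ± 0.192 over hESC, edgeR adjusted p = 0.0038). ZNF737 was the other C4 gene that was higher in hPFE than in hESC, at 31.7 and 38 CPM against 21.8 and 24.5 CPM (0.59 ± 0.194, edgeR adjusted p = 0.0438). ZNF714 and ZNF43, which are about as abundant as ZNF91 by TPM, did not pass the test, with log2 fold changes of -0.38 and -0.40. The promoters of the 14 matched C4 genes that fell and of the 15 other matched C4 genes both held CCAAT throughout. Those 15 include ZNF208, ZNF257, ZNF492 and ZNF723, which had too few counts to be tested. ACAAAGG stood in 64.3% of the windows of those that fell and in 60.0% of the others, and GGGCGG in 85.7% and 66.7%. The number of C4 genes lower in hPFE was 10 without the first hPFE library and 18 without the second, 7 without either hESC library, and 4 on the unrescaled and 6 on the rescaled TPM scale.

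**Figure D4:**
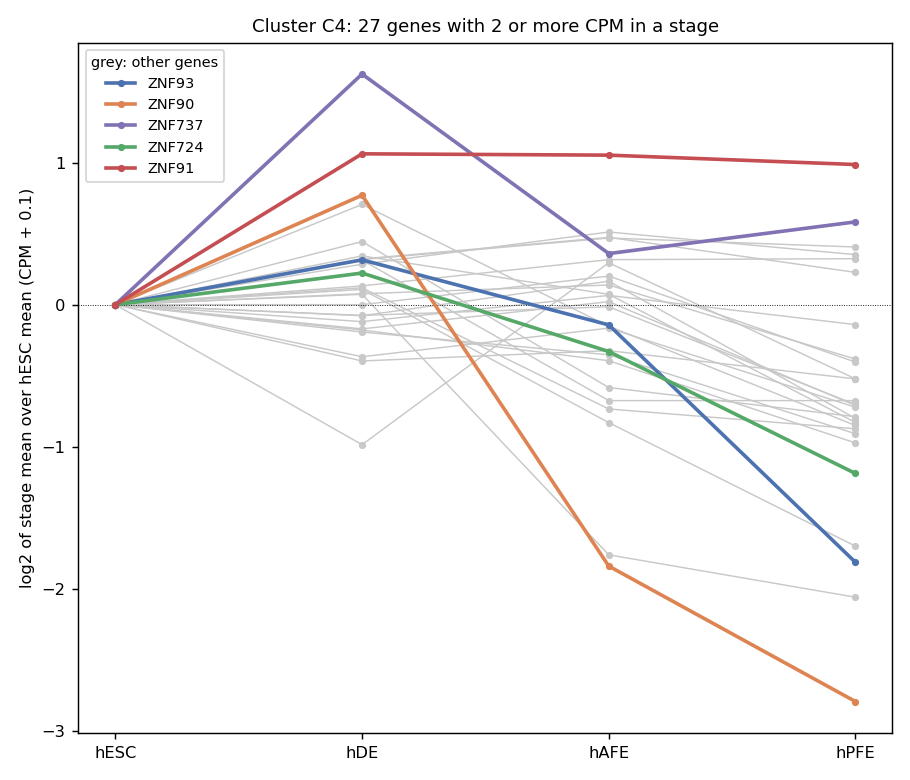
Log2 of the stage mean over the hESC mean (CPM + 0.1) for the 27 C4 genes that reached 2 CPM in a stage, from hESC to hPFE. Coloured lines are the 5 genes in the key and grey lines the other C4 genes. ZNF91 stayed near 1 from hDE on, and ZNF90 and ZNF93 ended lowest of those 5.

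Outside C4, the largest falls among members that reached 2 CPM were in C8 and C3. ZNF578 of C8 had 69 counts over the 2 hESC libraries against 1 over the 2 hPFE libraries. The hESC level was 62.1 times the hPFE level, with an exact 95% interval of 10.8 to 2489.3 that covers counting error only. ZNF320 was at 2.82 and 2.24 CPM in hPFE against 10.4 and 15.2 CPM in hESC (-2.33 ± 0.298, edgeR adjusted p = 0.000758), with the limits on its count given above. ZNF649 of C8, known to bind L1 elements, was at 25.8 and 32.7 CPM in hPFE against 100.5 and 103.5 CPM in hESC (-1.80 ± 0.279, edgeR adjusted p = 0.00181). ZNF878 was at 1.14 and 1.08 CPM in hPFE against 8.54 and 6.94 CPM in hESC (-2.79 ± 0.393, edgeR adjusted p = 0.00117). ZNF121 of C2, the member with the most reads, was at 174 and 244 CPM in hPFE against 484 and 511 CPM in hESC (-1.25 ± 0.181, edgeR adjusted p = 0.00131). Its stage means were in descending order from hESC to hPFE, with 0 of the 3 single steps past the edgeR threshold. ZNF114 and ZNF616 also fell (-1.64 and -0.96).

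Among members that reached 2 CPM, the 5 largest rises in hPFE were all of genes that were also higher in hDE than in hESC, 2 comparisons that share the hESC libraries. ZNF491 was at 4.13 and 3.53 CPM in hPFE against 0.424 and 0.918 CPM in hESC (2.49 ± 0.411, edgeR adjusted p = 0.00241). ZNF471 was at 6.65 and 9.59 CPM in hPFE against 1.58 and 2.52 CPM in hESC (1.98 ± 0.331, edgeR adjusted p = 0.00259). ZNF433 and ZNF441 of C3 rose by 1.76 and 1.47 on the log2 scale. ZNF428 was at 19.5 and 16.6 CPM in hPFE against 5.94 and 5.68 CPM in hESC (1.64 ± 0.194, edgeR adjusted p = 0.000551). ZNF224 of C7, known as a repressor of the aldolase A gene, was at 26.4 and 31.7 CPM in hPFE against 14.6 and 15.9 CPM in hESC (0.93 ± 0.179, edgeR adjusted p = 0.00489). ZNF558 was at 54.5 and 43.1 CPM in hPFE against 22.1 and 23.7 CPM in hESC (1.09 ± 0.163, edgeR adjusted p = 0.00153).

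Across the 3 steps, 155 of the 235 tested members were called at none, 36 were higher in hDE only as far as the calls go, and 12 were higher in hDE and lower in hAFE. A further 9 were lower at the hAFE step alone, 7 higher there, 6 lower at the hDE step alone and 4 lower at the hPFE step alone. The single patterns were ZNF428 (higher, higher, not called), ZNF331 (lower, not called, lower) and ZNF724 (not called, lower, lower). The patterns were not counted over all genes, so none is shown to be particular to the members. At the 3 single steps 25.1%, 14.0% and 2.55% of members were called, against 32.4%, 22.6% and 5.15% of all genes. A step without a call is not shown to be without a change.

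**Figure D5:**
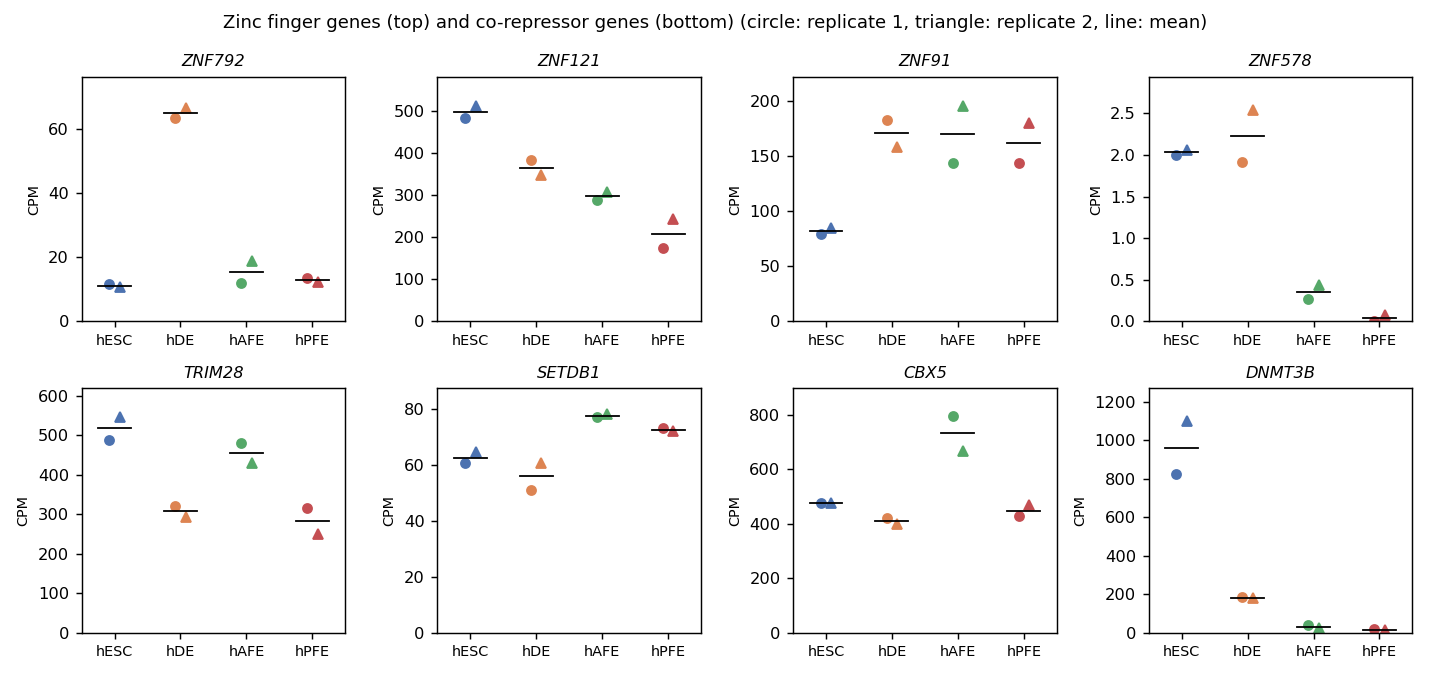
CPM per library of 4 members (top) and of 4 genes of the co-repressor list (bottom). Circles are replicate 1, triangles replicate 2 and lines the stage mean. ZNF792 stood at 63.5 and 66.5 CPM in hDE and at 19 CPM or less elsewhere, and the TRIM28 values in hDE and hPFE lay below those in hESC and hAFE.

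Many genes for the partners through which KRAB proteins act were lower in hDE. Of 35 listed genes of the TRIM28, SETDB1, HP1, NuRD, HUSH and DNA methylation machinery, all tested, 1 was higher and 16 lower in hDE than in hESC, against 15.0% higher and 17.4% lower among all genes, with a median of -0.44. In hAFE over hDE, 11 were higher and 1 lower, against 11.4% higher and 11.3% lower among all genes, with a median of 0.40. In hPFE over hAFE, 5 were lower, against 1.79% among all genes, with a median of -0.31. In hPFE over hESC 3 were higher and 12 lower, with a median of -0.25 and 42.9% called, against 16.4% higher, 19% lower and 35.3% called among all genes. The hDE falls numbered 7 without the second hESC library or either hDE library, the hAFE rises 5 without the second hDE library, and the falls in hPFE over hESC 2 without the second hESC library. The falls in hPFE over hAFE numbered 0 without any 1 of the hESC and hDE libraries, without the first hAFE library and with only the 4 libraries compared, and 12 with no filter.

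TRIM28, the co-repressor that KRAB domains bind, was at 321.5 and 293.6 CPM in hDE against 488 and 547 CPM in hESC (-0.75 ± 0.165, edgeR adjusted p = 0.00946). It was at 479 and 430 CPM in hAFE against those hDE values (0.56 ± 0.165, edgeR adjusted p = 0.0399), and at 317 and 250 CPM in hPFE, lower than in hESC (-0.87 ± 0.166, edgeR adjusted p = 0.00463). SETDB1, its H3K9 methyltransferase, was at 77.2 and 78.0 CPM in hAFE against 51.0 and 60.7 CPM in hDE (0.47, edgeR adjusted p = 0.039), and passed in no other comparison. DNMT3B, the de novo DNA methyltransferase of stem cells, was at 184 and 181.5 CPM in hDE against 824 and 1100 CPM in hESC (-2.40, edgeR adjusted p = 0.00042), and at 18.0 and 14.9 CPM in hPFE. EHMT2, an H3K9 methyltransferase, was at 40.1 and 37.3 CPM in hDE against 112.9 and 124.5 CPM in hESC (-1.62, edgeR adjusted p = 0.000606) and at 120 and 96.4 CPM in hAFE. UHRF1, a factor of maintenance methylation, was at 96.4 and 81.6 CPM in hAFE against 19.6 and 18.6 CPM in hDE (2.22, edgeR adjusted p = 0.000298). CHD3, a NuRD remodeller, was the listed gene that was higher in hDE, at 37.8 and 32.8 CPM against 16.5 and 14.7 CPM in hESC (1.18, edgeR adjusted p = 0.0074), and it reached 94.1 and 70.0 CPM in hPFE. CBX5, an HP1 protein, was at 427 and 469 CPM in hPFE against 794 and 668 CPM in hAFE (-0.71, edgeR adjusted p = 0.0332). Relative to the median of all genes, the list's median in hDE over hESC was -0.43, with -0.57 on the unrescaled and -0.16 on the rescaled TPM scale. In hPFE over hESC it was -0.29 by the same measure, with 0.20 on the unrescaled scale, where it lay on the other side, and -0.06 on the rescaled scale, where 15 genes lay above the median of all genes and 20 below.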

How the data were processed

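RNA was measured in 8 libraries of H1 cells, 2 per stage, from rRNA-depleted, strand-specific paired-end sequencing, per the labels' protocols. RSEM, DESeq2 and hg38 are named in the submitters' processing notes, with no versions. No aligner is named there, and use of strand in counting is not stated. The deposited values per gene are estimated counts (expected counts) and TPM from RSEM, with the posterior SD of the count and the effective length, per the file headers. TPM is relative to all transcripts, and in these libraries protein-coding genes took 13.3% to 14.4% of TPM in hDE and 20.6% to 31.3% elsewhere.

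From the deposited estimated counts, rounded to whole numbers, rows with 10 or more summed counts were tested with edgeR 4.0.16 (R 4.3.3, TMM, quasi-likelihood, all 4 stages in 1 fit with 4 residual degrees of freedom), with Benjamini-Hochberg adjustment over all rows and a threshold of 0.05. Tables were made with Python 3.11.15, pandas 2.3.3 and scipy 1.17.1. The procedure was tested on simulated data. Alternatives were RLE scaling, totals of protein-coding genes, other filters, a replicate block, fits of 4 libraries, each library left out, DESeq2 1.42.0, and limma 3.58.1 on log2(TPM + 1), also rescaled to protein-coding genes. A further alternative left members with a posterior SD above 0.2 of the count out of the main fit's results, with no new fit. Members overlap other genes on the same strand in 107 cases and on the opposite strand in 133, and their shared reads rest on estimation. The 3 readthrough rows were kept, and 2 members had a posterior SD above 0.2 of the count.

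Members, lists and cluster definitions were chosen with earlier results of these data known. Genes are named where they are among the 5 largest rises or falls of a comparison (2 CPM or more in the higher stage, no overlap), have the highest TPM of their cluster, have a described role and a call, or belong to a step pattern of 5 or fewer members. Others, such as ZNF600, ZNF83 and the longer patterns, were named after their values were seen, as parts of a run or count. In the co-repressor list, TRIM28, SETDB1 and up to 3 called genes of each comparison are named. The KRAB pattern and the promoter motifs were chosen after the files were read.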

Additional observations from a re-analysis of the deposited data

How the results depend on the processing

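Counts of members called in hDE over hESC were 49 higher (16 to 60 with 1 library left out, 83 with only the 4 libraries compared, 4 on log2(TPM + 1)) and 10 lower (2 to 16, and 23 with the 4 libraries), with a median of 0.20 (0.13 to 0.28, and -0.20 on TPM). In hAFE over hDE they were 11 higher (0 to 18, 24 with protein-coding totals, 77 on TPM) and 22 lower (11 to 29, and 2 on TPM), with a median of 0.09 (0.00 to 0.19, 0.25 with protein-coding totals, 0.63 on TPM, 0.23 on rescaled TPM). In hPFE over hAFE they were 0 higher (0 to 2, 3 without a filter, 1 by DESeq2) and 6 lower (2 to 26, 25 without a filter, 14 by DESeq2, 0 with the 4 libraries and 0 on TPM), with a median of -0.29 (-0.45 to -0.19, 0.03 on TPM, -0.16 on rescaled TPM). In hPFE over hESC they were 34 higher (13 to 39, 54 on TPM, 56 on rescaled TPM) and 48 lower (24 to 52, 8 and 25), with a median of -0.01 (-0.17 to 0.14, 0.14 with protein-coding totals, 0.46 on TPM, 0.34 on rescaled TPM). Members called for any difference numbered 103 (51 to 122). The causes were not tested. A gap of 0.5 or 2 Mb in place of 1 Mb gave 10 or 6 clusters in place of 9.

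The replicate numbers did not pair the libraries, with correlations of same-numbered deviations of -0.0291 to 0.0487 over 9850 genes. With the replicate number as a block, 10 members were lower in hPFE than in hAFE, and the other counts of members stayed within 1.5 times.

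Of 85 pairs of a named member and a comparison, 20 kept their call under all 18 alternatives, 56 lost it under 1 or more and 9 reversed, all on log2(TPM + 1). The reversed values were ZNF146 and ZNF493 in hPFE over hESC (0.07 and 0.11), ZNF302 and ZNF555 in hDE over hESC (-0.04 and -0.02), and ZNF320, ZNF625, ZNF66, ZNF724 and ZNF730 in hAFE over hDE (0.45, 0.32, 0.05, 0.29 and 0.13). The median of all genes moved too on that scale, to 0.24 in hPFE over hESC, -0.14 in hDE over hESC and 0.34 in hAFE over hDE. Relative to those medians 8 of the 9 kept their direction, and ZNF320 did not. The alternative without members of high posterior SD repeats the main fit for the others, so it could not lose a call. With 2 libraries per stage, a change that did not pass is not shown to be absent.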
